A study of Glycine max with 2 samples.

Results

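The circadian clock genes LHY, TOC1 and GIGANTEA were examined in young shoot tips of soybean. They comprise 10 loci among the 69145 in the tables, taken by identifier and not by a cut on their values. The choice was made with earlier results of these data known. LHY/CCA1 has the 4 loci Glyma07g05410, Glyma16g01980, Glyma03g42260 and Glyma19g45030. TOC1 has the 4 loci Glyma04g33110, Glyma06g21120, Glyma05g00880 and Glyma17g11040. GIGANTEA (GI) has the 2 loci Glyma10g36600, which is the maturity locus E2, and Glyma20g30980. The tables hold 20 transcript models of these 10 loci, all above 0 in both libraries. The number after "Glyma" gives the chromosome. A RefSeq gene table of another assembly names an LHY gene on each of the chromosomes 3, 7, 16 and 19, a GIGANTEA gene on chromosomes 10 and 20 and a TOC1 gene on chromosome 6, but it pairs none of them with these identifiers, so the family names are those of the list that set the loci.

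RNA-Seq compared Clark glabrous (CG), the hairless mutant, with its wild-type isoline Clark standard (CS). CG carries the dominant P1 allele, brought into the Clark background by repeated backcrossing, and lacks the non-glandular trichomes that CS has. Each line gave 1 RNA-Seq library, made from pooled shoot tips of several greenhouse plants about 4 weeks old. The study describes greenhouse growth for both lines together and does not say whether they grew side by side. In the study, a separate sample of each line also gave Digital Gene Expression (DGE) tag counts, which were not compared here. With 1 RNA-Seq library per line a difference has no replicate check here, no p-value is given, and line, plants and harvest cannot be told apart. The hour of harvest is not given in the sources used here. Since shoot tips hold many cell types, fewer cells of a type and less RNA per cell cannot be told apart either.

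The plant clock is a loop of transcription factors that repress each other at different times of day. LHY and its relative CCA1 are MYB factors whose transcripts peak around dawn in Arabidopsis and repress evening genes. TOC1, a pseudo-response regulator that peaks in the evening, represses LHY and CCA1 in turn. GIGANTEA is a large plant-specific protein, also with an evening peak, that works with blue-light receptors of the ZEITLUPE family and in the pathway by which day length sets flowering. In soybean the E2 copy of GIGANTEA is known for its effect on flowering time and maturity.

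Values are the deposited RPKM, in which the number for a model is divided by its length and by a total for the library, so that levels can be compared between genes. A locus is represented by its model with the highest mean RPKM. Log2 CG/CS ratios were taken after adding 0.1 RPKM, except where stated, and a negative ratio means a lower level in CG. Fold values of single loci, ratios within a library and all intervals were taken without this addition. At low levels a fold value is thus further from even than the log2 ratio beside it. Loci with a log2 ratio beyond 1 or -1 were counted as at least 2-fold apart. The totals behind the values, worked out from their steps, were 147273809 in CG and 152791817 in CS. They exceed the reads sequenced. A read could align to several models, so the totals are taken here as alignments and not as mapped reads, which was not tested. The study reports more aligned reads in CG than in CS, the reverse of the order of these totals. Scaling by aligned reads was not tried. Intervals of 95% are exact, cover counting error in these libraries only, and rest on the smallest whole numbers of alignments that give the values.

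All 4 LHY loci were at least 2-fold lower in CG, whereas the 4 TOC1 loci and the 2 GI loci were within 2-fold. Of the 10 clock loci, 4 were thus at least 2-fold lower in CG and 0 at least 2-fold higher. Over the whole genome set, 35099 loci averaged at least 1 RPKM over the libraries, and of these 5.67% were at least 2-fold lower in CG and 15.2% at least 2-fold higher. The median log2 ratio of the 10 clock loci was -0.37, against 0.35 for all 35099. Median-centring multiplied the CG library by 0.788, which put at 0 the median ratio of the 43753 models that averaged at least 1 RPKM. It left the same 4 of 10 loci at least 2-fold lower. The backgrounds were then 9.57% lower and 9.11% higher, over the 34049 loci that averaged at least 1 RPKM after this scaling. At an average of 10 RPKM or above there were 6 clock loci, 2 of them at least 2-fold lower in CG and 0 higher, with backgrounds at that level of 7.39% lower and 14.2% higher.

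**Figure D1:**
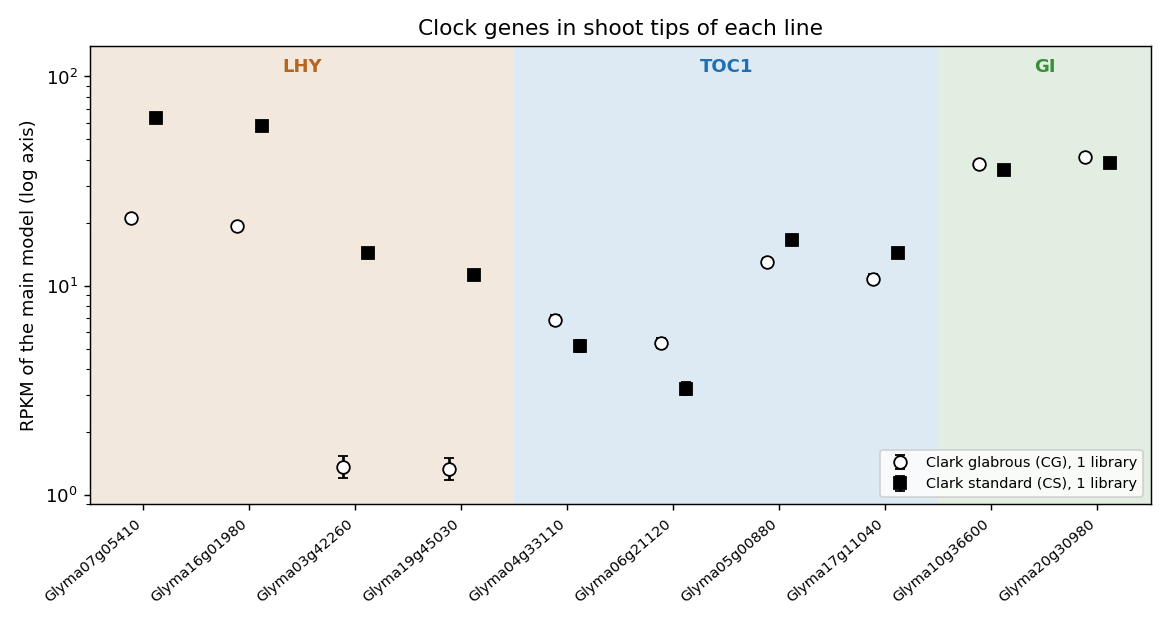
RPKM on a log axis of each clock locus in CG (open circles) and CS (filled squares), 1 library each, with exact 95% Poisson intervals that cover counting error only. At each of the 4 LHY loci the CG symbol lies far below the CS symbol of that locus, as with 21.0 against 63.3 RPKM at Glyma07g05410, while the GI symbols lie close together.

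The more abundant LHY loci were those on chromosomes 7 and 16. Glyma07g05410 had 21.0 RPKM in CG and 63.3 RPKM in CS, a 3.01-fold lower level in CG with an interval of 2.93-fold to 3.10-fold. Glyma16g01980 had 19.3 RPKM in CG and 58.3 RPKM in CS, a 3.02-fold lower level in CG with an interval of 2.95-fold to 3.10-fold. Their log2 ratios were -1.59 each. This pair therefore differed between the lines by nearly the same factor, and the level of Glyma07g05410 over that of Glyma16g01980 was 1.09 in both CG and CS. The alignment let a read count on several models, so the ratios of close copies are not independent measurements.

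The LHY loci on chromosomes 3 and 19 were less abundant and further apart between the lines. Glyma03g42260 had 1.36 RPKM in CG and 14.3 RPKM in CS, a 10.5-fold lower level in CG with an interval of 9.29-fold to 11.9-fold. Glyma19g45030 had 1.33 RPKM in CG and 11.3 RPKM in CS, an 8.48-fold lower level in CG with an interval of 7.50-fold to 9.61-fold. These intervals do not overlap those of the loci on chromosomes 7 and 16. The CG values of Glyma03g42260 and Glyma19g45030 rest on at least 284 and 288 alignments. Log2 ratios were -3.30 and -2.99, and 162 and 191 of the 35099 loci had a ratio as low. Both loci were at least 4-fold lower in CG, as were 1.54% of the 35099.

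As a family, LHY summed to 43.0 RPKM in CG and 147.1 RPKM in CS, a log2 ratio of -1.77. The pair on chromosomes 3 and 19 made up 6.27% of the LHY sum in CG and 17.4% in CS. The pair on chromosomes 7 and 16 was 14.9 times as abundant as the pair on chromosomes 3 and 19 in CG and 4.75 times as abundant in CS. These proportions within a library do not depend on how the libraries are scaled to each other.

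**Figure D2:**
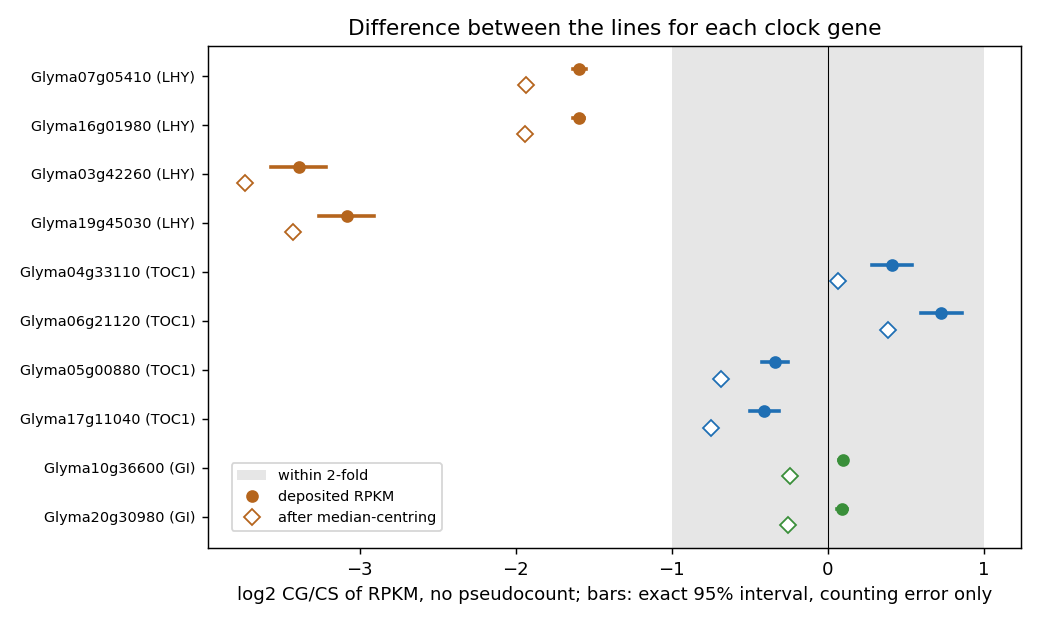
Log2 CG/CS of the RPKM of each clock locus without a pseudocount, as deposited (filled circles, with exact 95% intervals for counting error) and after median-centring (open diamonds), with the range within 2-fold in grey. The 4 LHY loci lie left of the grey range on both scales, from -3.39 to -1.59 as deposited, and the 6 other loci lie inside it.

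TOC1 showed no common direction. Glyma04g33110 had 6.87 RPKM in CG and 5.15 RPKM in CS, a log2 ratio of 0.41. Glyma06g21120 had 5.33 RPKM in CG and 3.21 RPKM in CS, a log2 ratio of 0.71. In the other pair, Glyma05g00880 had 13.0 RPKM in CG and 16.4 RPKM in CS, a log2 ratio of -0.34. Glyma17g11040 had 10.8 RPKM in CG and 14.3 RPKM in CS, a log2 ratio of -0.40. The less abundant loci on chromosomes 4 and 6 were thus higher in CG and the more abundant ones on chromosomes 5 and 17 lower in CG. After median-centring the ratios were 0.07, 0.38, -0.68 and -0.74 in the order given. The signs were kept, but at 0.07 Glyma04g33110 was then nearly even between the lines.

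The TOC1 sum was 36.0 RPKM in CG and 39.1 RPKM in CS, a log2 ratio of -0.12. Within it the pair on chromosomes 4 and 6 took 33.9% in CG and 21.4% in CS. The pair on chromosomes 5 and 17 was 1.95 times as abundant as the other in CG and 3.67 times as abundant in CS. Counting intervals of the log2 ratios were taken from the pooled alignments of each pair, not from its RPKM sum. These intervals, 0.48 to 0.66 for the first pair and -0.43 to -0.31 for the second, do not overlap. They say nothing of the spread between plants, and all 4 differences are within 2-fold.

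GIGANTEA was close in both lines. The E2 locus Glyma10g36600 had 38.2 RPKM in CG and 35.6 RPKM in CS, a log2 ratio of 0.10 with a counting interval of 0.07 to 0.13. Glyma20g30980 had 41.2 RPKM in CG and 38.7 RPKM in CS, a log2 ratio of 0.09 with an interval of 0.06 to 0.12. This direction turned with the scaling, and the median-centred ratios were -0.24 for Glyma10g36600 and -0.25 for Glyma20g30980. In both lines the copies contributed nearly equally, Glyma10g36600 holding 48.1% of the GI sum in CG and 47.9% in CS.

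**Figure D3:**
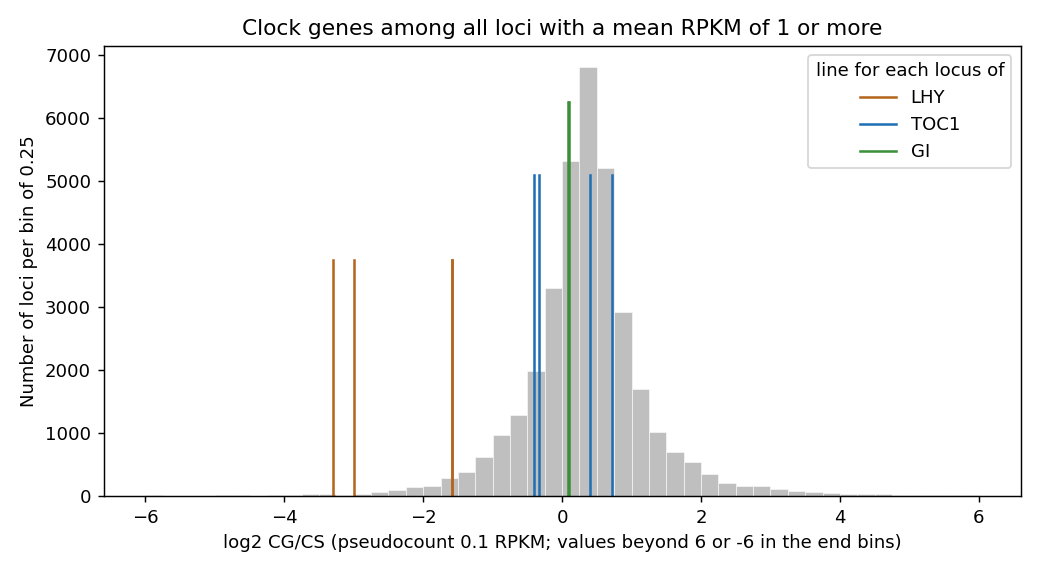
Number of loci per bin of log2 CG/CS (pseudocount 0.1 RPKM) for the 35099 loci that averaged at least 1 RPKM, in grey, with a coloured line at the ratio of each clock locus. The LHY lines, 2 of which coincide at -1.59, stand in the left tail, and the TOC1 and GI lines stand in the bulk of the loci. Line heights carry no meaning.

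The ratio between families within a library gave the same contrast with no scaling between libraries. Summed LHY was 1.19 times summed TOC1 in CG and 3.76 times in CS, so that the LHY/TOC1 ratio was 3.15-fold lower in CG. Summed LHY was 0.541 times summed GI in CG and 1.98 times in CS, a 3.66-fold lower ratio in CG. The evening genes kept closer proportions to each other, with a GI/TOC1 ratio of 2.20 in CG and 1.90 in CS.

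The order of the levels changed accordingly. In CG both GI loci came first, followed by Glyma07g05410, Glyma16g01980 and the 4 TOC1 loci, with Glyma03g42260 and Glyma19g45030 last and not distinguishable from each other by counting error. In CS Glyma07g05410 and Glyma16g01980 came first, ahead of the GI loci, and Glyma03g42260 stood level with the TOC1 locus Glyma17g11040 within counting error. All other neighbours in the order had separate counting intervals in their library. Among all 69145 loci, Glyma07g05410 had rank 4571 by RPKM in CG and rank 1098 in CS, and Glyma03g42260 had rank 32995 in CG and rank 5672 in CS. By contrast, Glyma10g36600 had rank 2236 in CG and rank 2012 in CS.

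The transcript models of a locus gave nearly the same ratio. Of the 20 models 12, all of LHY, were at least 2-fold lower in CG and 0 at least 2-fold higher, beside 5.57% and 13.9% of all models tested. The 3 models of Glyma07g05410 had log2 ratios from -1.61 to -1.59, the 4 models of Glyma16g01980 all had -1.59, and the 4 models of Glyma03g42260 had ratios from -3.30 to -3.29. In Glyma17g11040 the models differed more, with 7.54 RPKM in CG and 9.31 RPKM in CS for Glyma17g11040.1 (log2 ratio -0.30), and 10.8 RPKM in CG and 14.3 RPKM in CS for Glyma17g11040.2 (log2 ratio -0.40). Models of a locus overlap, and the alignment let a read count on up to 25 models with up to 3 mismatches, so models and close gene copies are not independent measurements. How many reads the copies share was not tested.

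**Figure D4:**
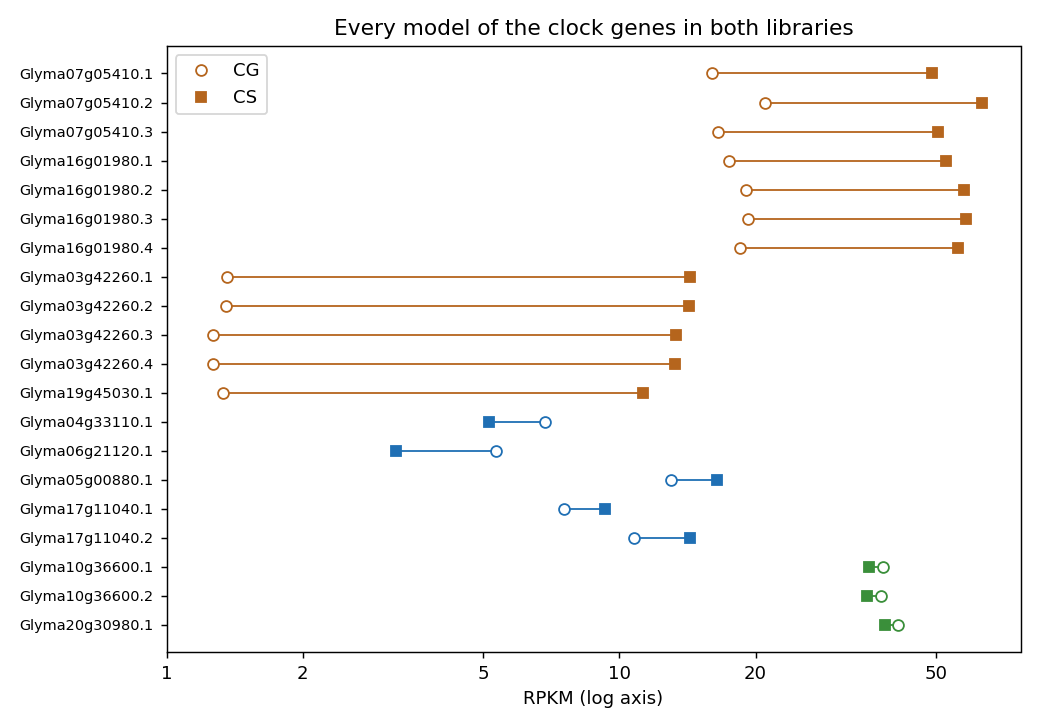
RPKM on a log axis of each of the 20 models in CG (open circles) and CS (filled squares), joined by a line and coloured by family (LHY brown, TOC1 blue, GI green). Models of the same locus have lines of similar length and direction.

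The loci beside the LHY genes differed in both directions. Each clock locus was set against the 5 nearest loci before it and the 5 after it by Glyma number that averaged at least 1 RPKM. Around the 4 LHY loci the medians of the 10 flanking loci were between -0.22 and 0.42, and in 0 of these neighbourhoods was a flanking locus as low as the LHY locus itself. Of the 40 flanking loci, 6 (15%) were at least 2-fold lower in CG and 6 at least 2-fold higher. By neighbourhood, 1 was lower and 2 higher beside Glyma07g05410, and 1 lower and 3 higher beside Glyma16g01980. Beside Glyma03g42260 2 were lower and 1 higher, and beside Glyma19g45030 2 were lower and 0 higher. The flanking medians were 0.42, 0.42, -0.02 and -0.22 in the same order. Around the TOC1 and GI loci 7 of 60 (11.7%) were at least 2-fold lower and 7 at least 2-fold higher, and there the flanking medians were between 0.20 and 0.48. The shares of lower loci were above the 5.67% of all 35099 loci in both sets of neighbourhoods, and every one of the 10 held at least 1 such locus. The shares of higher loci were 15% beside LHY and 11.7% beside TOC1 and GI, against 15.2%. Some flanking loci of paired clock loci had similar ratios. Among the lower ones were Glyma05g00910 at -1.51 and Glyma17g10990 at -1.62, and among the higher ones Glyma07g05420 at 2.73 and Glyma16g01990 at 2.25. A read could count on several models, so the flanking loci may not be independent and these shares can hold a difference more than once.

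**Figure D5:**
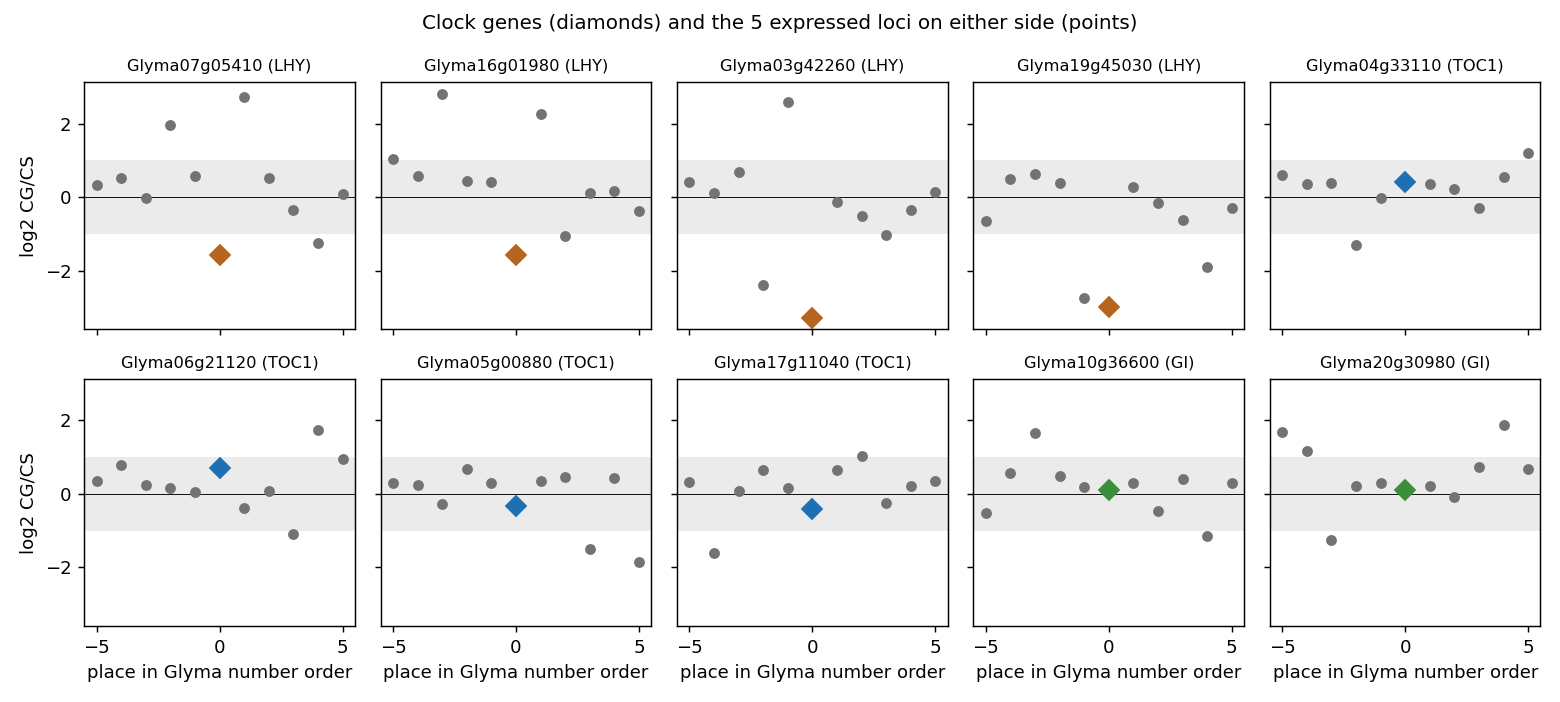
Log2 CG/CS (pseudocount 0.1 RPKM) of each clock locus (coloured diamond) and of the 5 expressed loci on either side (grey points) by place in Glyma number order, with the range within 2-fold in grey. The 4 LHY diamonds are the lowest symbol of their panels.

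The labelled tissue could be checked only in part, because names for meristem or other cell type markers could not be matched to the identifiers. The study also reports chlorophyll a/b-binding matches among its most abundant tags, but that list was not used for this check. The 2 loci annotated as chlorophyll a/b-binding in the list of tags that differed between the lines in the study had 189 and 281 RPKM in CG and 990 and 1093 RPKM in CS. Both were lower in CG. The study chose their tags for a difference between these lines and cites this list for tags at least 2-fold over-expressed in CS. A lower level in CG thus goes with how they were chosen. Their part in the LHY result was not tested.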

How the data were processed

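RNA from pooled shoot tips was sequenced by the authors on an Illumina GaII. The authors mapped reads of 75 bases with Bowtie (version not given in the sources used here) to the Glyma cDNA models of the soybean reference genome, allowing up to 3 mismatches and 25 alignments per read, and deposited 1 RPKM value per model and library for 78773 models. RPKM values are not counts, and no count test was used.

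The members and lists were chosen with earlier results of these data known. Every member and model was to be named. A list of other clock genes and cell type markers by name was not made, because the RefSeq table matched 0 identifiers. Totals and whole alignments were worked out from the steps of the RPKM values. All 20 clock models gave whole numbers, which are the smallest that fit and can be fractions of the true ones. Ratio intervals are Clopper-Pearson and level intervals Poisson. A count of 0 would allow 3 alignments, on a model of 1000 bases 0.0204 RPKM in CG and 0.0196 RPKM in CS.

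Alternatives were pseudocounts of 1 and 0.01, median-centring, the same 75th percentile of models above 0, other choices of model, filters on mean RPKM and, for the ratios between families, family medians. Steps were tested on simulated data. The scripts ran in Python 3.11.15 with SciPy 1.17.1, pandas 2.3.3 and NumPy 2.4.6, and the plots were drawn with matplotlib 3.10.9.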

Additional observations from a re-analysis of the deposited data

How the results depend on the processing

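The 4 LHY loci remained at least 2-fold lower in CG, and the 6 other loci within 2-fold, under both other pseudocounts, both scalings and both other choices of model. With only loci of mean RPKM 10 or more, 2 LHY loci were left. Median-centring gave log2 CG/CS ratios of -2.12 for the LHY sum, -0.46 for TOC1 and -0.25 for GI, and the same upper quartile gave -2.10, -0.44 and -0.23, so that GI turned from slightly higher to slightly lower in CG. With the first model of each locus the LHY sum had -1.81 and the TOC1 sum -0.059, and the LHY/TOC1 ratio of CG was 0.296 times that of CS, against 0.317 as reported. The ratios of single loci ranged widest with the pseudocount and scaling for Glyma03g42260, from -3.62 to -2.69, and Glyma19g45030, from -3.31 to -2.40. No paired analysis was possible because the RNA-Seq data hold 1 library a line, and leaving a library out would end the comparison. The list of other clock genes was not run under any alternative. Depth does not limit these genes, but the lack of replicates does.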

Other observations

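The following loci were chosen after their values were seen, and the tables do not pair them with names. The flanking locus with the lowest ratio was abundant in each LHY neighbourhood. Glyma19g44990, the expressed locus just before Glyma19g45030, had 25.02 RPKM in CG and 168.1 RPKM in CS, a log2 CG/CS ratio of -2.74. Glyma03g42240, near Glyma03g42260, had 36.3 RPKM in CG and 192.8 RPKM in CS, a log2 ratio of -2.41. Glyma07g05490 had 41.2 RPKM in CG and 98.1 RPKM in CS, a ratio of -1.25, and Glyma16g02010 had 50.8 RPKM in CG and 106.2 RPKM in CS, a ratio of -1.06. Abundant flanking loci at least 2-fold lower in CG were not particular to LHY. Beside the TOC1 loci, Glyma17g10990 had 34.0 RPKM in CG and 104.6 RPKM in CS, a ratio of -1.62. Glyma05g00910 had 36.8 RPKM in CG and 105.02 RPKM in CS, a ratio of -1.51. The lowest ratio beside Glyma05g00880 was however that of a scarcer locus, Glyma05g00940, with 0.786 RPKM in CG and 3.10 RPKM in CS. Beside Glyma04g33110 and Glyma06g21120 the lowest flanking loci were also scarcer, below 10 RPKM in both libraries.

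Some expressed loci right beside LHY were at least 2-fold higher in CG. Glyma07g05420, just after Glyma07g05410, had 3.91 RPKM in CG and 0.506 RPKM in CS. Glyma16g01990, just after Glyma16g01980, had 2.06 RPKM in CG and 0.356 RPKM in CS. Glyma03g42250, just before Glyma03g42260, had 4.28 RPKM in CG and 0.628 RPKM in CS. The locus just after Glyma03g42260, Glyma03g42290, had 3.10 RPKM in CG and 3.45 RPKM in CS, and the one just after Glyma19g45030, Glyma19g45040, had 1.91 RPKM in CG and 1.56 RPKM in CS. Whether these loci are copies of each other could not be examined without their sequences.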
